A study of Drosophila melanogaster with 6 samples.

Results

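The genes examined here encode subunits of the proteasome in the fruit fly Drosophila melanogaster. They were chosen by name only: a probe set had to carry exactly 1 gene symbol, and that symbol had to begin with Prosalpha, Prosbeta, Rpn or Rpt and a number where the family uses one. The rule found 40 genes among the 11981 genes with a single-gene probe set on the array, each with 1 probe set. Of these, 26 were general subunits and 14 were paralogs whose names end in T or R, called testis paralogs here after the tissue for which most of them are known. The probe sets of Prosbeta5, Prosbeta7, Rpn6, Rpn13 and Rpn12R carry the suffix _s_at, which Affymetrix gives to probes that can match more than 1 gene, and are less certain for it. The RefSeq gene table held 48 symbols of these families, so 8 were not measured singly. Prosalpha1 and Prosalpha1R shared a probe set and were left out, and Prosbeta1, Rpn9, Rpn10, Rpt1, Rpt6 and Rpt6R were not analysed here.

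RNA came from 2 kinds of embryo aged 1 to 2 h. The first group held 3 samples labelled zld germ-line clone (zld-GCL), meaning that the eggs came from germ cells mutant for zelda (zld) and were made without its normal maternal product. The labels name neither the allele nor the fathers. The second held 3 samples of yw embryos, labelled wild type, which carry the y and w marker mutations by their name. Zelda is a zinc finger protein that the mother loads into the egg and that activates early embryonic genes. Each sample was hybridized to 1 Affymetrix Drosophila Genome 2 array, and the comparison asks which transcripts differ when maternal Zelda is missing.

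The proteasome is the machine that destroys proteins tagged with ubiquitin. Its 20S core is a barrel of outer alpha and inner beta rings, with the protein-cutting sites on beta subunits inside. The 19S particle caps the barrel: its Rpt subunits are ATPases that unfold the protein and feed it in, and its Rpn subunits bind ubiquitin chains, remove them and hold the cap together. Before its own genome is broadly transcribed, the fly embryo lives on RNA and protein supplied by the mother, and many regulators of its early divisions are removed through the proteasome. In Drosophila males, several core and cap subunits have a second copy expressed in the developing sperm, where it takes the place of the general subunit; Prosalpha6T, for example, is needed for male fertility.

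The targeted gene checked the labels first. The signal of zld, a linear array intensity as scaled by the authors, was 225 ± 34.7 in zld germ-line clone embryos and 1017 ± 48.1 in yw embryos (SD, n = 3 each). On the log2(signal + 16) scale, and as clone over yw here and throughout, this was -2.11 (SE 0.114, adjusted p = 1.92e-04, limma). Maternal RNAs marked the tissue, since bcd, osk, gcl and CycB had a signal above background on all 6 arrays, and all 5 early zygotic genes listed did too, of which ftz, eve and sna fell in clone embryos. Background was set at 18.1, the 95th percentile of 162 signals from 27 control probe sets for Bacillus genes. Muscle and matrix genes, which mark older embryos or larvae, had a summed signal of 106.1, 96.8 and 126.2 on clone replicates 1, 2 and 3, and of 425.3, 647.8 and 156.7 on yw replicates 1, 2 and 3. The yw replicates 1 and 2 therefore stood apart for these 8 markers, and the members that the results turn on are also given without them. Among 11 measured follicle cell and yolk protein genes, 0 were called in either direction. Fewer cells of a type and less RNA per cell cannot be told apart in whole-embryo RNA.

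RNA of the general proteasome was present in both kinds of embryo at levels that differed little. All 26 general subunits had signals above background on all 6 arrays, from 320.4 to 1977.1, where 41.6% of all probe sets were above it on every array. Of the 26, 1 rose in clone embryos, the 19S ATPase gene Rpt5, and 0 fell. Over all 18769 probe sets, 0.863% were called higher, 0.778% lower and 1.64% in either direction (limma, adjusted p under 0.05). The log2 fold changes of the general subunits ran from 0.01 to 0.70. Their median was 0.15, beside -0.05 over all probe sets and 0.02 over those in the same range of mean signal. Under quantile normalization the median of the general subunits was 0.06, beside -0.005 over all probe sets. The 95% interval of the log2 fold change lay within 2-fold in both directions for 25 of the 26, all but Rpn7. The same held for 17280 of all 18769 probe sets. Of the 1941 probe sets whose mean signal fell in the range of the general subunits, 528.5 to 1771, 0.567% were called higher and 0.361% lower. For 1915 of these 1941 the interval lay within 2-fold, so the narrow intervals were not particular to the general subunits.

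**Figure D1:**
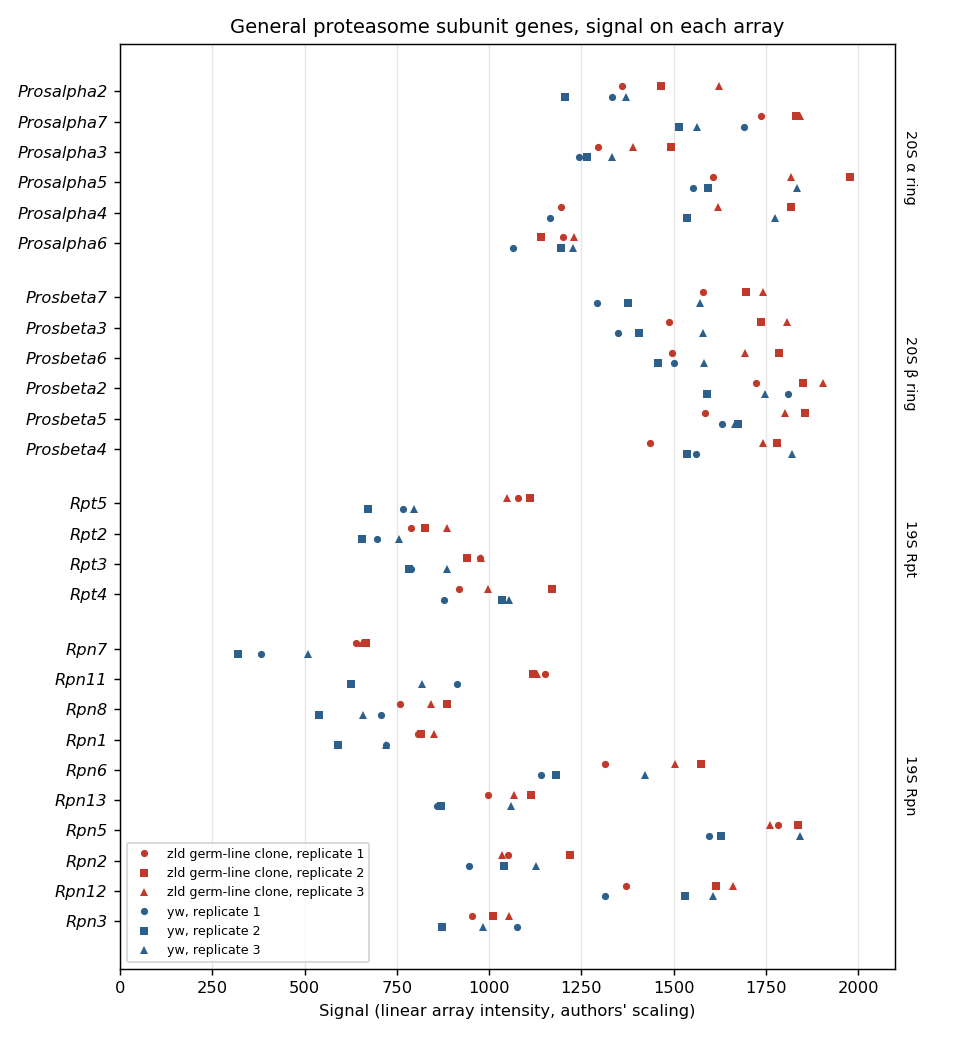
Signal (linear array intensity) of the 26 general subunit genes on each of 6 arrays, with the 3 zld germ-line clone arrays in red above the 3 yw arrays in blue in each row and the replicate given by the symbol. All points lie between 320.4 and 1977.1, and the groups overlap for most genes, with Rpt5, Rpn7 and Rpn11 standing clear.

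The general subunits leaned to one side. All 26 had a log2 fold change above 0, against 38.1% of all probe sets and 57.0% of those in the same signal range. Under quantile normalization the count was 19 of 26. The probe set shared by Prosalpha1 and Prosalpha1R, left out of the 26, tended the other way. Its signals were 1556, 1886.6 and 1919.9 on the clone arrays and 1889.4, 1945.2 and 2165.8 on the yw arrays. For 9 of the 26 the 3 clone arrays lay above the 3 yw arrays, and for 0 below, where 8.11% of all probe sets and 13.8% of those in the same signal range lay above. At an unadjusted p under 0.05, 8 were higher and 0 lower, where 6.69% of all probe sets were higher and 8.67% lower. Of the 1941 probe sets in the same signal range, 184 were higher and 113 lower at that threshold. The lean was uneven across arrays. Summed over the 26 genes, the signal was 32276, 36324 and 35672 on clone replicates 1, 2 and 3 and 29965, 29690 and 33313 on yw replicates 1, 2 and 3, so that yw replicate 3 fell inside the clone range. For the 1941 probe sets in the same signal range, the sums were 1673010.8, 1736103.3 and 1758807 on the clone arrays. On the yw arrays they were 1635488, 1664489.9 and 1736407.9. There too clone replicate 1 was the lowest clone array and yw replicate 3 fell inside the clone range. Neither trait was thus particular to the general subunits. How often each array ranked lowest or highest was counted for the 26 genes only. Clone replicate 1 was the lowest clone array for 20 of the 26 genes and yw replicate 3 the highest yw array for 20. The lowest of all 6 arrays was yw replicate 1 for 12 genes and yw replicate 2 for another 12, the arrays with the muscle and matrix signal; the part of that signal in the lean was not tested. Without yw replicates 1 and 2, the general median was 0.06, 17 of the 26 values were above 0, and 0 general subunits were called.

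None of the 12 measured 20S core genes was called, and their log2 fold changes ran from 0.01 to 0.24 with a median of 0.12. In the outer alpha ring, which gates the entry to the barrel, the 6 genes had a median of 0.12, or 0.04 under quantile normalization. Prosalpha7 was the only one of them with separate groups. Its signals were 1735.6, 1831.3 and 1841.8 on the clone arrays and 1691.1, 1513.8 and 1563.7 on the yw arrays. Every clone array was above every yw array, and the log2 fold change of 0.18 had an adjusted p of 0.374 (limma). Prosalpha6 had the smallest difference of the ring, with 1199.1, 1139.2 and 1230.7 on the clone arrays and 1063.1, 1195.8 and 1228.3 on the yw arrays. These groups overlapped, and the log2 fold change of 0.04 had a 95% interval of -0.17 to 0.24, and it was -0.0462 without yw replicates 1 and 2. Prosalpha4 varied most between replicates, with a clone mean of 1544 ± 320 and a yw mean of 1492 ± 308 (SD, n = 3 each). The other 3 genes, Prosalpha2, Prosalpha3 and Prosalpha5, had log2 fold changes of 0.18, 0.12 and 0.11 and overlapping groups.

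In the inner beta ring the 6 genes had a median log2 fold change of 0.11, or -0.003 under quantile normalization. Prosbeta2 and Prosbeta5 carry protein-cutting sites. Prosbeta2 averaged 1826 ± 92 in clone embryos and 1716 ± 113 in yw embryos (SD, n = 3 each). Prosbeta5 averaged 1747 ± 143 in clone embryos and 1656 ± 22.5 in yw embryos (SD, n = 3 each). Neither was called, with log2 fold changes of 0.09 and 0.07 and overlapping groups. Prosbeta7 had the largest difference in the core. Its signals were 1579, 1696.1 and 1740.6 on the clone arrays and 1291.1, 1375 and 1571.7 on the yw arrays, so that the groups just separated. The log2 fold change was 0.24 (95% interval 0.01 to 0.48, adjusted p = 0.303, limma). Prosbeta4 had the smallest difference of all general subunits, with 1436.7, 1780.5 and 1742.1 on the clone arrays and 1561.6, 1535.1 and 1821.5 on the yw arrays. Its log2 fold change of 0.01 had an interval of -0.26 to 0.28, and it was -0.15 without yw replicates 1 and 2. Prosbeta3 and Prosbeta6 were at 0.21 and 0.13, with overlapping groups.

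Of the 14 measured genes of the 19S cap, 7 had separate groups, all with the clone arrays higher, where 8.11% of all probe sets and 13.8% of those in the same signal range had. Their median log2 fold change was 0.23, against 0.12 for the core. The difference between cap and core was not tested. Without yw replicates 1 and 2 the medians were 0.13 for the Rpt genes, 0.03 for the Rpn genes, 0.01 for the alpha ring and 0.06 for the beta ring. Across the 26 general subunits, the difference was larger where the mean signal was lower (Pearson r = -0.62, Spearman rho = -0.53, n = 26 genes measured on the same 6 arrays). Signals of different probe sets are not amounts of RNA, so this describes the probe sets only.

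Among the Rpt ATPases, Rpt5 was the only general subunit that rose. Its signals were 1078, 1110.9 and 1047.7 on clone replicates 1, 2 and 3 and 766.8, 672.6 and 796.6 on yw replicates 1, 2 and 3. Every clone array was above every yw array. The mean was 1079 ± 31.6 in clone embryos and 745 ± 64.7 in yw embryos (SD, n = 3 each), which is 0.53 on the log2 scale or 1.44-fold (SE 0.0913, adjusted p = 0.0325, limma). The call of Rpt5 was a narrow one. It ended when any of the 3 clone arrays or yw replicate 1 or 2 was left out, with log2 fold changes of 0.46 to 0.55 and adjusted p-values of 0.0509 to 0.145, and it was 0.43 without yw replicates 1 and 2 together. The methods' t-test, eBayes without a trend and the replicate block did not call it either. The genes on either side of Rpt5, RanBP3 and Hrd3, were not called and had log2 fold changes of 0.11 and 0.07 and overlapping groups.

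Rpt2 and Rpt3 also had separate groups and were not called. Rpt2 had 788.2, 826.7 and 885 on the clone arrays and 694.8, 656.3 and 754.4 on the yw arrays. Rpt3 had 975.4, 939.5 and 976.9 on the clone arrays and 787.1, 781.7 and 885.9 on the yw arrays. Their log2 fold changes were 0.24 (adjusted p = 0.252, limma) and 0.23 (adjusted p = 0.243, limma). Rpt3 was at 0.12 without yw replicates 1 and 2. Rpt4, the remaining measured ATPase, was at 0.05 with overlapping groups and an interval of -0.22 to 0.33. Rpt5 and Rpt4, which sit in the same ring of the cap, thus gave the highest and the lowest value of the 4, and the difference between them was not tested.

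Of the Rpn genes, Rpn7, Rpn11, Rpn8 and Rpn1 had separate groups, and 0 of 10 were called. Rpn7, a scaffold subunit of the lid, had the largest difference of all general subunits. Its signals were 638.3, 666.2 and 654.5 on the clone arrays and 382.7, 320.4 and 508.8 on the yw arrays. The clone arrays lay close together, with a mean of 653 ± 14, and the yw arrays were spread, with a mean of 404 ± 96 (SD, n = 3 each). The log2 fold change of 0.70 (SE 0.151, 95% interval 0.35 to 1.04) had an adjusted p of 0.0728 (limma). It was called with dim probe sets left out (adjusted p = 0.0245), with median centring (0.0293) and without yw replicate 3 (0.014), and it was 0.35 without yw replicates 1 and 2.

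Rpn11 is the enzyme of the lid that cuts ubiquitin chains off before a protein is destroyed, and Rpn8 is its inactive partner. Rpn11 had signals of 1149.9, 1118.1 and 1129.6 on the clone arrays and 913.2, 626 and 818.3 on the yw arrays. Rpn8 had 759, 884.6 and 842.9 on the clone arrays and 706.1, 539 and 658.3 on the yw arrays. For both genes the clone arrays were all higher and yw replicate 2 was the lowest array. The log2 fold changes were 0.54 for Rpn11 (adjusted p = 0.106, limma) and 0.38 for Rpn8 (adjusted p = 0.170, limma). Rpn11 was called with dim probe sets left out (adjusted p = 0.0441) and with median centring (0.0482), and it was 0.46 without yw replicates 1 and 2.

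Rpn1, a large base subunit that docks ubiquitin and shuttle proteins, had 807.4, 814.3 and 849.6 on the clone arrays and 719.1, 589.2 and 719.4 on the yw arrays. Its log2 fold change was 0.29 (adjusted p = 0.226, limma). Rpn13, a ubiquitin receptor, was at 0.19, and Rpn2, the base subunit that holds it, at 0.08. The lid subunits Rpn6, Rpn5, Rpn12 and Rpn3 were at 0.23, 0.09, 0.06 and 0.04. All of these 6 had overlapping groups. Rpn3, the smallest difference among the Rpn genes, had 953.4, 1009.2 and 1053.9 on the clone arrays and 1076.4, 872.1 and 983.9 on the yw arrays, and it was at 0.03 without yw replicates 1 and 2.

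**Figure D2:**
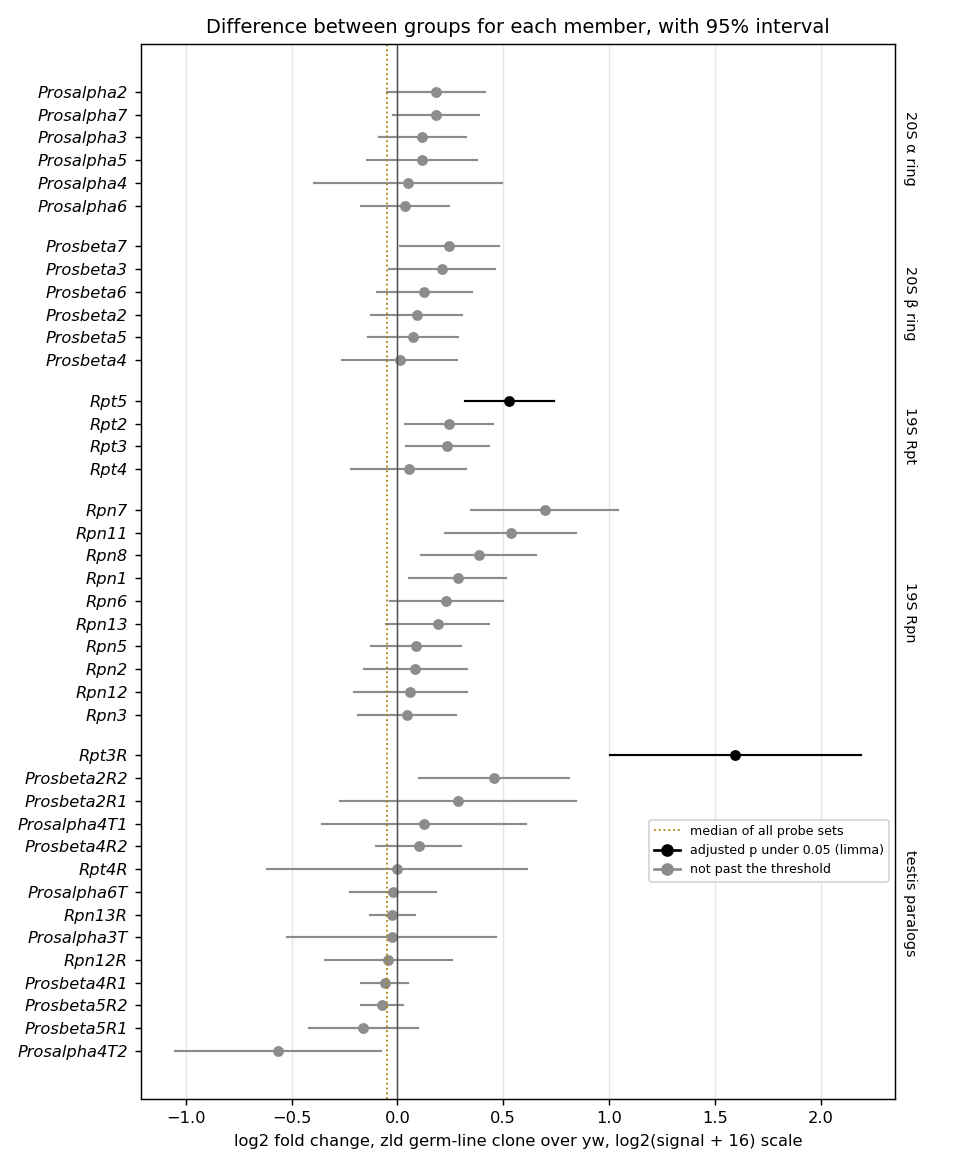
Log2 fold change of each of the 40 members, zld germ-line clone over yw on the log2(signal + 16) scale, with its 95% interval from limma; black marks an adjusted p under 0.05 and the dotted line the median of all probe sets at -0.05. All general subunits lie right of 0 and between 0.01 and 0.70, and Rpt5 and Rpt3R are the 2 members past the threshold.

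Most testis paralogs were at background in early embryos of both kinds. The exceptions by group mean were Rpt3R in clone embryos and, just above the background level, Prosalpha4T2 in yw embryos. Of the 14 paralogs, 9 had no signal above background on any of the 6 arrays, where 35.6% of all probe sets had none. A further 4 exceeded it on 1 or 2 arrays, and Rpt3R exceeded it on all 3 clone arrays and on 0 of 3 yw arrays. Rpt3R was the only paralog called higher, beside 0.863% of all probe sets, and 0 were called lower. The median log2 fold change of the 14 was -0.02, close to that of all probe sets, and it was 0.05 under quantile normalization, 0.13 with median centring and 0.0065 without yw replicates 1 and 2.

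Rpt3R is a copy of the ATPase gene Rpt3. Its signals were 66.5, 66.9 and 49.9 on clone replicates 1, 2 and 3 and 2, 12.9 and 15.3 on yw replicates 1, 2 and 3. The clone arrays were all well above background and the yw arrays all within it. The mean was 61.1 ± 9.7 in clone embryos and 10.1 ± 7.09 in yw embryos (SD, n = 3 each). The fit gave 1.60 on the log2 scale (SE 0.257, 95% interval 1.00 to 2.19, adjusted p = 0.0253, limma). Because the yw signal could not be told from background, the ratio is given as a bound: the clone level was at least 3.34-fold higher, taking yw at the background level of 18.1. With the highest of the Bacillus control signals, 27.3, as the floor, it was at least 2.22-fold higher. Both bounds allow for the background only and leave out the spread between arrays.

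The fitted value of Rpt3R depended on the pseudocount, being 2.81 with a pseudocount of 1 and 0.76 with 64, and it was called with both. The call ended without clone replicate 1, 2 or 3 and without yw replicate 2, with log2 fold changes of 1.54 to 1.71 and adjusted p-values of 0.0548 to 0.105. Without yw replicates 1 and 2 together it was 1.29 (adjusted p = 0.114, limma), and the methods' t-test and the replicate block did not call it. Its probe set has the suffix _a_at, which Affymetrix gives to probes shared by transcripts of 1 gene. None of the neighbouring genes on the chromosome was called. Tti1 and Alg12, on either side, had log2 fold changes of -0.09 and -0.29, and PpD3 and Mpi, one gene further out, were at 0.23 and 0.03. All 4 had overlapping groups.

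Rpt3, the general gene of the same ATPase, was above background on every array and was not called. For the other paralogs the partner gene likewise had its signal in both groups while the copy stayed low. Prosalpha4T2 was the only paralog besides Rpt3R with a group mean above background, and there it was the yw mean. Its signals were 14.7, 6.9 and 3.9 on the clone arrays and 19.9, 26.1 and 14 on the yw arrays. The groups overlapped and the gene was not called (adjusted p = 0.257, limma). All 3 clone arrays and yw replicate 3 were under background, so the fitted log2 fold change of -0.57 is no measure of size: it was -1.27 with a pseudocount of 1, -0.21 with 64, and -0.32 without yw replicates 1 and 2. Its general partner Prosalpha4 was at 0.05, and the other copy of that gene, Prosalpha4T1, had signals of 2.6 to 17.7 over all 6 arrays.

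The copies of the beta genes gave no call. Prosbeta2R2 had 13.4, 11.9 and 9.3 on the clone arrays and 9.1, 1.3 and 2.6 on the yw arrays. The clone arrays were the higher ones, but all 6 values were under the background level. Prosbeta2R1 exceeded background on clone replicate 3 only, at 24. Prosbeta4R1 and Prosbeta4R2, which lie 2 genes apart on the chromosome, and Prosbeta5R1 and Prosbeta5R2 had no signal above 7.5. For Prosbeta4R1 and Prosbeta5R2 the 3 clone arrays lay below the 3 yw arrays, as for 13.6% of all probe sets, at signals of 0.9 to 2.6 that are all under background. Among the remaining copies, Rpt4R and Prosalpha3T exceeded background on yw replicate 1 only, at 22 and 21.3. Prosalpha6T, Rpn12R and Rpn13R stayed between 1 and 9.9 on every array.

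**Figure D3:**
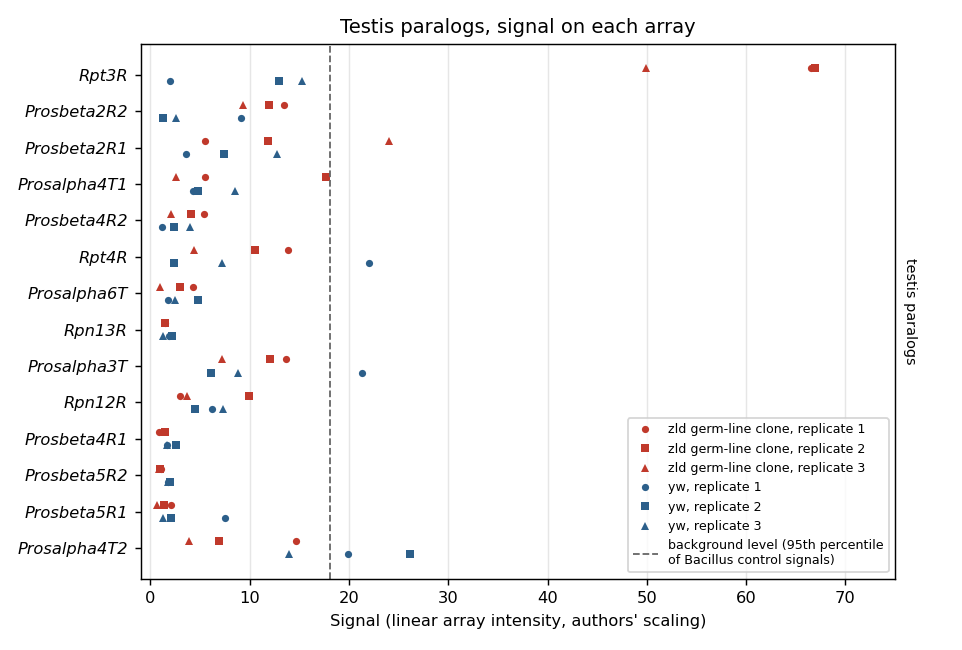
Signal (linear array intensity) of the 14 testis paralogs on each array, with the zld germ-line clone arrays in red above the yw arrays in blue in each row; the dashed line is the background level of 18.1. The 3 clone values of Rpt3R, 49.9 to 66.9, stand clear of all others, of which the highest is 26.1 in Prosalpha4T2.

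**Figure D4:**
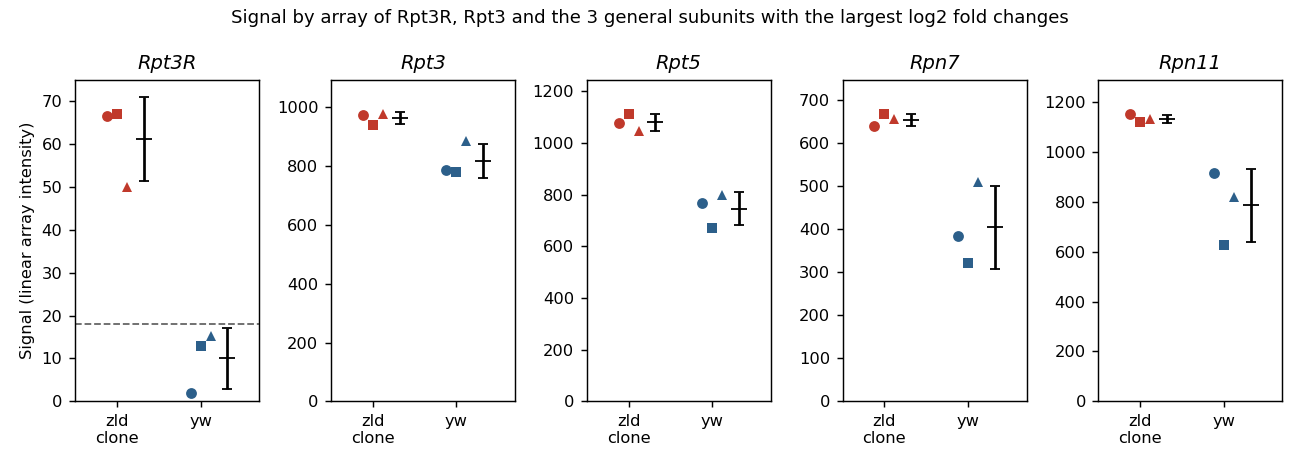
Signal by array of Rpt3R, its general counterpart Rpt3, and Rpt5, Rpn7 and Rpn11, with zld germ-line clone arrays on the left and yw arrays on the right of each panel; circles, squares and triangles are replicates 1, 2 and 3, bars are mean ± SD (n = 3), and the dashed line in the first panel is the background level of 18.1. The groups are separate in all 5 panels, by the widest ratio in Rpt3R.

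Other genes known from the testis were set beside the paralogs. Of 15 measured, 0 were called in either direction, 11 had no signal above background on any array, and the median log2 fold change was -0.03. Their summed signal was 283.7, 258.6 and 290.3 on the clone arrays and 222.4, 306.8 and 266.5 on the yw arrays, so the groups overlapped. The 4 with a signal on all arrays were betaTub85D, mia, Taf12L and bol. Bol, a germ-line RNA-binding protein, had 74.1, 53.2 and 62.4 on the clone arrays and 30.7, 33.4 and 32.7 on the yw arrays. These groups were separate, as for Rpt3R, and the log2 fold change of 0.71 had an adjusted p of 0.104 (limma). Mia also had separate groups, with the clone arrays higher, at 0.44. Taf12L and betaTub85D were at -0.52 and -0.13, with overlapping groups. Of the 15, 2 had all clone arrays above the yw arrays and 1, soti, had them all below, at signals under background. Over all probe sets, 8.11% lay above and 13.6% below. The part of bol and mia in the result for Rpt3R was not tested.

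None of the measured genes on 4 lists of genes that work with the proteasome was called. The 4 lists held 9, 6, 4 and 5 measured genes. At an unadjusted p under 0.05 (limma), Sem1, Ubi-p63E, Npl4, Ufd1 and maf-S were higher and 0 were lower. Over all probe sets, 6.69% were higher and 8.67% lower at that threshold. In the signal range of the general subunits, which not all listed genes share, 184 of 1941 were higher and 113 lower. Among 9 measured regulators and partners, 0 passed in either direction and the median log2 fold change was 0.09. The largest was that of Sem1, a small lid subunit named outside the Rpn family. Its signals were 866.2, 1132.6 and 1068.9 on the clone arrays and 860.4, 674.1 and 851.2 on the yw arrays, and its log2 fold change was 0.36 (adjusted p = 0.264, limma). REG, an alternative cap of the core, was at 0.09, and the proteasome regulator PI31 at -0.15. Of 6 measured genes for ubiquitin and its conjugation, 0 passed, with a median of 0.18. The polyubiquitin gene Ubi-p63E was the largest at 0.34, with 1808.2, 2249.1 and 1986.2 on the clone arrays and 1399.5, 1607.2 and 1763 on the yw arrays, while Ubi-p5E was at -0.26. Without yw replicates 1 and 2, Ubi-p63E was at 0.19 and Sem1 at 0.25.

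The ATPase p97, encoded by TER94, pulls ubiquitin-tagged proteins out of complexes before they reach the proteasome, helped by Npl4, Ufd1 and p47. Of these 4 genes 0 passed, with a median of 0.28. TER94 was at 0.06. Its cofactors Npl4 and Ufd1 had separate groups, at 0.38 (adjusted p = 0.0868, limma) and 0.40 (adjusted p = 0.217, limma). Npl4 had 691.8, 697.9 and 623.7 on the clone arrays and 490.9, 546.1 and 495 on the yw arrays. Ufd1 had 277.8, 366 and 273.7 on the clone arrays and 256.1, 206.1 and 219.5 on the yw arrays. Among 5 factors known to control proteasome genes in other settings, 0 passed and the median was 0.13. The transcription factor gene cnc was at 0.28 and its partner maf-S at 0.32, while Keap1, Pngl and Dref were at -0.25, 0.04 and 0.13. The signals of maf-S were 571.4, 660.1 and 534.5 on the clone arrays and 435.8, 503.8 and 462.3 on the yw arrays. Without yw replicates 1 and 2, maf-S was at 0.33 and Ufd1 at 0.44.

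**Figure D5:**
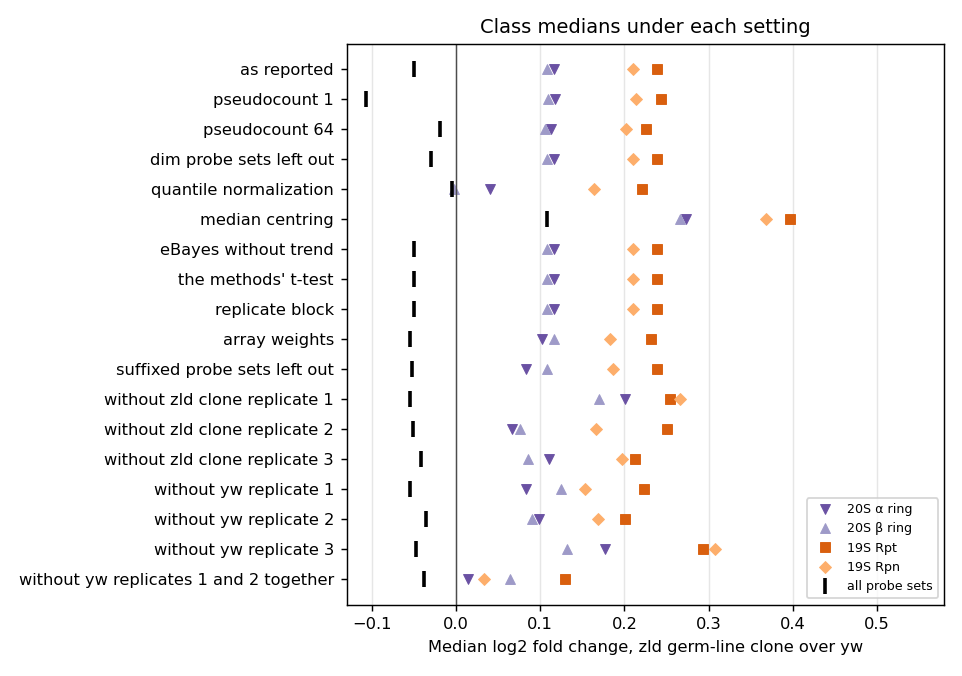
Median log2 fold change of each class of general subunit, zld germ-line clone over yw, under the reported setting and each alternative; black bars are the median of all probe sets. The 19S classes lie at 0.21 and 0.24 and the 20S rings at 0.12 and 0.11 as reported, and all 4 lie nearest to 0 under quantile normalization or without yw replicates 1 and 2.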

How the data were processed

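The authors' deposited values are linear array intensity signals, 1 per probe set and array, on Affymetrix Drosophila Genome 2 arrays; per the labels' protocols they were processed and normalized with GCOS (no version stated there). A trimmed mean that drops 2% of probe sets at each end equals 150.0 for each array. Detection calls, scanner files and sequences were not used here. The 183 control probe sets were left out. Symbols came from the platform annotation, updated to RefSeq (assembly GCF_000001215.4).

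The test was limma (3.58.1, R 4.3.3) on log2(signal + 16), fitted to all 18769 probe sets and 6 arrays with group as the only term and eBayes with a trend, with Benjamini-Hochberg adjustment over all of them and calls at an adjusted p under 0.05. Each member had 1 probe set, so taking the brightest or the mean gave the same values. For zld, the listed genes and the neighbouring genes the brightest probe set was used. Any other probe sets of these genes were not compared. On simulated arrays with 200 changed probe sets, limma recovered 72% of 2-fold and 99% of 4-fold changes, with false calls making up 3.93%. The changed probe sets were drawn only from those brighter than the median, and the noise was independent between arrays and probe sets. These rates therefore do not cover dim probe sets, as of most paralogs, or changes under 2-fold, as of the general subunits. Motif and protein comparisons were planned and not run.

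Full values are given for called members, the 3 highest and 3 lowest general subunits, paralogs with a group mean above background and the general partner of a called paralog; others with values per array were added after their values were seen. The members and lists were chosen with earlier results of these data known. The series text speaks of 3 biological replicates and a sample field of duplicate collections, so p-values may cover only technical spread. The number of arrays limits the precision. Over all probe sets, same-numbered arrays deviated from their group means with r of 0.147, -0.00 and -0.03 for numbers 1, 2 and 3. For arrays of different numbers r was -0.118 to 0.126. The summed signal of the maternal RNAs rose with the number in both groups, and that of the p97 genes did not. Whether the numbers pair the arrays is thus not settled, and the replicate block was run as an alternative. Figures were drawn with Python 3.11.15 and matplotlib 3.10.9.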

Additional observations from a re-analysis of the deposited data

How the results depend on the processing

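As reported, 162 probe sets were higher and 146 lower, with 1 general subunit (Rpt5) and 1 testis paralog (Rpt3R) higher and 0 of either lower, which stayed 0 in every setting run. With dim probe sets left out, 327 were higher and 264 lower. Higher were 3 general subunits (Rpn7, Rpn11, Rpt5) and 1 p97 gene, which was not Ufd1. Median centring moves the median of all probe sets by 0.157 on the log2 scale. It gave 552 higher (81.3% of calls, against 52.6% as reported). Among these were 3 general subunits (the same genes), 1 p97 gene (not Ufd1) and 1 control factor (maf-S). The medians were then 0.31 for the general subunits and 0.13 for the paralogs. Without the eBayes trend, 0 general subunits were called. The methods' t-test (adjusted) called 2 probe sets higher and 0 lower, with 0 general subunits and 0 paralogs, and gave zld -2.11 (adjusted p = 0.0836). With the replicate number as a block, 75 were higher and 76 lower, with 0 general subunits and 0 paralogs. The adjusted p was then 0.0756 for Rpt5 and 0.0724 for Rpt3R (limma). Whether the numbers pair the arrays is not known. Leaving out suffixed probe sets removed Rpt3R and left 0 paralogs called. Without yw replicates 1 and 2, 51 were higher and 43 lower, with 0 general subunits and 0 paralogs, on 1 yw array assumed to vary like the others. Leaving out 1 array at a time gave 35 (without clone replicate 3) to 227 (without yw replicate 1) higher, 45 (without clone replicate 3) to 213 (without yw replicate 3) lower, 0 to 2 general subunits (2 without yw replicate 3, 0 otherwise) and 0 to 1 paralogs. The small values changed sign: Prosbeta4 ran from -0.0465 to 0.11, Prosalpha6 from -0.0271 to 0.0756 and Rpn3 from -0.0342 to 0.12 over the single arrays left out. Under quantile normalization Prosbeta4 was -0.0927, Prosalpha6 -0.0116 and Rpn3 -0.0097, and without yw replicates 1 and 2 Prosbeta4 was -0.15 and Prosalpha6 -0.0462. Across the alternatives, adjusted p-values of 0.0109 to 0.208 were found for Rpt5 (called in 8 of 17) and of 0.00387 to 0.166 for Rpt3R (called in 9 of 16). The cause was not tested. With dim probe sets left out, 1 of 14 paralogs remained, so no median was taken. Most paralogs lie within background, where a difference cannot be measured.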

Other observations

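The probe set shared by Prosalpha1 and its copy Prosalpha1R was left out of the counts because it names 2 genes. It had signals of 1556, 1886.6 and 1919.9 on the clone arrays and 1889.4, 1945.2 and 2165.8 on the yw arrays. The groups overlapped, with the clone arrays tending lower.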
